A study of Rattus norvegicus with 6 samples.

Results

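The receptors through which a sensory neuron could respond to hormones of fat, the pancreas and the liver, together with the docking proteins of the insulin receptors, were examined in sensory neurons from dorsal root ganglia (DRGs) at levels L1-L2, taken from spontaneously hypertensive rats, or SHRs. The set held 10 genes, chosen by name with no measured value in the rule, though with earlier results of these data known. They included the leptin receptor Lepr, the adiponectin receptors Adipor1 and Adipor2, the chemerin receptor Cmklr1 and the growth hormone receptor Ghr. The others were the insulin receptor Insr, the insulin-like growth factor (IGF) receptors Igf1r and Igf2r, and the insulin receptor substrates Irs1 and Irs2. All 10 were found among the 25689 genes of the count table, and all 10 passed the filter on low counts, which kept 14919 genes. The samples came from wild-type SHRs in which the perirenal adipose tissue had been removed surgically on both sides (PRATA, n = 3) or that had undergone a sham operation (n = 3), and all 6 samples were taken 4 weeks after the operation. By the labels, rats of both groups were 6 to 8 weeks old, while the study's methods give an older age at purchase. Neurons were freed from the ganglia with collagenase and trypsin and parted from glia by their different speed of adhesion, which enriches neurons without making a pure population. Neither the labels nor the methods state that each sample is a separate animal, so p-values measure the spread between these samples, which may in part be technical.

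Adipokines and insulin-like hormones use unlike receptors. Leptin and growth hormone bind cytokine-type receptors without a kinase of their own, which work through JAK2 and the STAT factors and are switched off by the SOCS proteins that STATs induce. Insulin and the IGFs bind receptor tyrosine kinases that pass the signal through IRS proteins to PI3K, AKT, the FOXO factors and mTOR, while Igf2r clears IGF2 and carries lysosomal enzymes without a kinase domain. Adiponectin acts through membrane receptors that raise AMPK activity, and chemerin acts through a G protein-coupled receptor best known on macrophages. Sensory neurons are known to carry insulin, IGF and leptin receptors.

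Total counts lay between 5892967 (sham replicate 2) and 15226952 (sham replicate 1), so that 3 counts correspond to between 0.207 and 0.468 CPM, counts scaled to a common library size with the TMM factors of edgeR, the unit of every level given here. The gene with the most reads took 5.40% of the counts in PRATA replicate 3 and 5.63% in sham replicate 1 but between 1.69% and 2.62% in the other 4 samples, and earlier results of these data had set those 2 samples apart, so the values of the 10 genes without them are also given. Markers of sensory neurons were abundant, with a summed level between 14170 and 21854 CPM after PRATA and between 10056 and 15172 CPM after the sham operation. All 18 neuronal markers tested were higher after PRATA, 4 of them at an unadjusted p under 0.05, a threshold that 18.3% of all genes passed, and their median log2 difference was 0.45. All 8 markers of myelinating Schwann cells were also higher (summed level 872 to 1523 CPM against 670 to 878 CPM, median log2 difference 0.61), while 7 of 9 satellite glial markers (580 to 1233 CPM against 787 to 1437 CPM) and 7 of 8 fibroblast markers (337 to 1997 CPM against 921 to 1856 CPM) were lower. Markers of macrophages, endothelial cells, mural cells and adipocytes had summed levels of at most 87.6, 170, 248 and 11.9 CPM. None of those tested, and no fibroblast marker, differed at an unadjusted p under 0.05 (edgeR). For every cell type, neurons included, the ranges of the summed level overlapped between the groups. The exact two-sided permutation p lay between 0.2 and 0.8, where the smallest possible is 0.1. Of the 9 adipocyte markers, Plin1, Lep, Retn, Cfd and Pck1 had no read in at least 1 sample, so little RNA of fat cells was present. Fewer cells of a type and less RNA per cell cannot be told apart in these bulk samples.

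No member of the family passed the test across all genes. With edgeR's quasi-likelihood test and Benjamini-Hochberg adjustment, 0 of the 10 receptors and substrates had an adjusted p under 0.05. Nor did any of all 14919 genes (0%), where the smallest adjusted p was 0.156. In simulated counts this test recovered 6% of 2-fold changes, so the lack of a call does not show that a gene was unchanged. At an unadjusted p under 0.05 there was 1 member, Ghr, which was lower after PRATA, beside 18.3% of all genes in either direction, 8.19% higher and 10.1% lower. In the 10 genes 4 estimates were above 0 and 6 below, beside 7760 above 0 and 7159 below in all 14919 genes. The median log2 fold change was -0.09 against 0.02 over all genes tested. The 3 PRATA samples lay wholly to one side of the 3 sham samples for 1 member, Insr, beside 22.8% of all genes. Without PRATA replicate 3 and sham replicate 1, the log2 fold changes were -0.64 for Ghr, -0.52 for Igf1r, 0.45 for Insr, 0.24 for Igf2r, 0.04 for Lepr and -0.04 for Cmklr1, none with an adjusted p under 0.05.

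**Figure D1:**
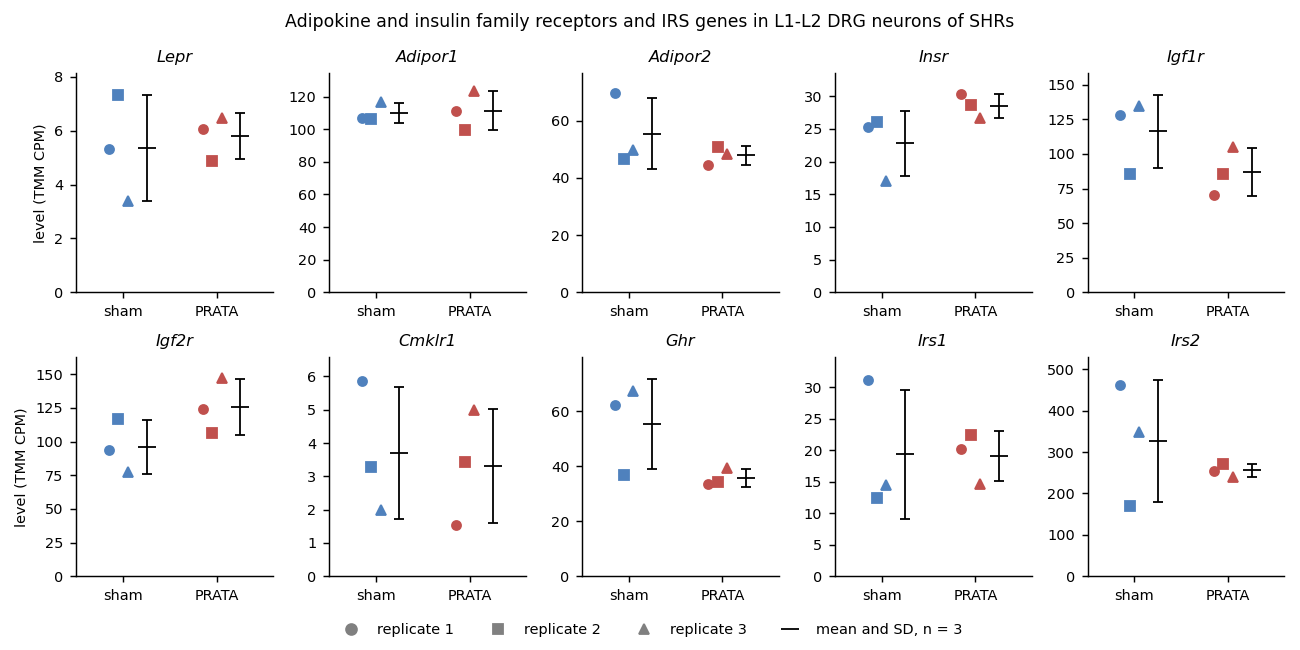
Level of each of the 10 genes in every sample (vertical axis, TMM-normalized CPM on a linear scale from 0), with sham samples in blue and PRATA samples in red, the marker shape giving the replicate number and the black bars the mean and SD of 3 samples. Only for Insr do the 3 red points all lie above the 3 blue points, while for Ghr, Igf1r and Irs2 sham replicate 2 (blue square) falls inside or below the PRATA range.

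Ghr (ENSRNOG00000015654), the receptor through which growth hormone activates JAK2 and STAT5, had the smallest p of the 10. It stood at 33.6, 34.2 and 39.3 CPM in the PRATA samples, in the order of their replicate numbers, and at 62.2, 36.8 and 67.3 CPM in the sham samples. The PRATA samples were close together and the sham samples were not: 2 sham samples were high, while sham replicate 2 lay below PRATA replicate 3, so the groups overlap. The mean was 35.7 ± 3.15 CPM after PRATA and 55.4 ± 16.3 CPM after the sham operation (SD, n = 3), a log2 fold change of -0.64 (SE 0.24, unadjusted p = 0.0293, adjusted p = 0.231, edgeR). The 95% interval ran from a level 56.3% lower to one 5.53% lower, before any correction for the number of genes, and the gene ranked 1891 of 14919 by p. Without sham replicate 2 the log2 fold change was -0.86 with an adjusted p of 0.0369 (edgeR), in a fit that put 5.93% of all genes under the same threshold. The estimate lay between -0.86 and -0.48 in all 15 alternative fits, with an unadjusted p under 0.05 in 9 of them and an adjusted p between 0.0369 and 0.580.

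The insulin receptor Insr (ENSRNOG00000029986) was the member without overlap between the groups. It had 30.3, 28.6 and 26.6 CPM after PRATA and 25.3, 26.1 and 17.0 CPM after the sham operation. The separation was narrow, since PRATA replicate 3 and sham replicate 2 were almost level and sham replicate 3 alone was much lower. Means of 28.5 ± 1.84 and 22.8 ± 5.02 CPM gave a log2 fold change of 0.33 (SE 0.21, 95% interval -0.15 to 0.80, adjusted p = 0.427). Over the 6 samples the genes whose log2 levels were most correlated with Insr were Colec11 (Pearson r = 0.997), Tmem51 (r = 0.992) and LOC102546678 (r = 0.992), given as a description over few samples that share their group means.

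The type 1 IGF receptor Igf1r (ENSRNOG00000014187), a kinase closely related to the insulin receptor, was at 70.5, 85.2 and 105 CPM after PRATA and at 128, 85.8 and 135 CPM after the sham operation. Here too sham replicate 2 lay among the PRATA samples, and the other sham samples were above all 3. The difference of means, 86.9 ± 17.3 against 116 ± 26.7 CPM, gave a log2 fold change of -0.42 (SE 0.23, 95% interval -0.95 to 0.11, adjusted p = 0.362), and -0.60 without sham replicate 2 (adjusted p = 0.0993, edgeR). Igf2r (ENSRNOG00000014997), the scavenger of IGF2 that is also the mannose 6-phosphate receptor, went the other way in its means. Its level was 124, 106 and 147 CPM after PRATA and 93.6, 117 and 77.4 CPM after the sham operation, with sham replicate 2 above PRATA replicate 2. The means were 126 ± 20.5 and 95.9 ± 19.9 CPM (log2 fold change 0.39, SE 0.21, 95% interval -0.09 to 0.87, adjusted p = 0.352). Igf2r has an overlapping antisense transcript in rodents and the strand setting of the counting is not given in the sources used here, so reads of both may be joined in its count.

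The substrates Irs1 and Irs2 dock PI3K to the activated insulin and IGF receptors. Irs2 (ENSRNOG00000023509) had 255, 272 and 241 CPM after PRATA, a coefficient of variation of 6.10%, but 463, 170 and 348 CPM after the sham operation, a coefficient of variation of 45.2%. The sham samples therefore lay on both sides of the PRATA samples, and the log2 fold change of -0.35 (SE 0.33, 95% interval -1.12 to 0.42, adjusted p = 0.604) was about as large as its SE. Irs1 (ENSRNOG00000014597) was at 20.3, 22.4 and 14.7 CPM after PRATA and at 31.1, 12.5 and 14.5 CPM after the sham operation. Only sham replicate 1 stood above the rest, and the means of 19.1 ± 3.97 and 19.3 ± 10.2 CPM were nearly equal (log2 fold change -0.03, SE 0.36, 95% interval -0.85 to 0.79, adjusted p = 0.974). Without PRATA replicate 3 and sham replicate 1 the log2 fold change of Irs1 was 0.65 (adjusted p = 0.379, edgeR) and that of Irs2 was 0.01, so the sign of either value rested on those 2 samples.

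The adiponectin receptors had the smallest SEs of the 10 genes. Adipor1 (ENSRNOG00000004143) was at 111, 99.4 and 123 CPM after PRATA and at 107, 106 and 117 CPM after the sham operation, and its log2 fold change was 0.02 (SE 0.16). The 95% interval of that difference ran from 21.4% lower to 30.3% higher, the narrowest of the 10 (adjusted p = 0.965). Its sign turned with the scaling, to -0.0077 with the size factors of DESeq2 and -0.019 with library size alone, so no direction can be given. Adipor2 (ENSRNOG00000007990) was at 44.4, 50.8 and 48.5 CPM after PRATA and at 69.6, 46.7 and 49.9 CPM after the sham operation. Sham replicate 1 alone was high, and the log2 fold change of -0.21 (SE 0.20, 95% interval -0.66 to 0.24, adjusted p = 0.595) became -0.03 without it and PRATA replicate 3.

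Lepr and Cmklr1 had the fewest reads of the 10 genes. Lepr (ENSRNOG00000023664) was at 6.07, 4.86 and 6.48 CPM after PRATA and at 5.32, 7.34 and 3.40 CPM after the sham operation, which rested on between 36 and 82 reads a sample. Sham samples held both the highest and the lowest value, and the log2 fold change was 0.13 (SE 0.34, adjusted p = 0.870) with a 95% interval from 36.0% lower to 86.7% higher. Lepr shares its first exons with Leprot, and how reads on shared exons were assigned is not given in the sources used here. Cmklr1 (ENSRNOG00000000704) was at 1.55, 3.43 and 4.98 CPM after PRATA and at 5.87, 3.28 and 1.98 CPM after the sham operation, from 12 to 85 reads a sample. The 2 groups covered much the same range (log2 fold change -0.16, SE 0.53, 95% interval -1.38 to 1.07, adjusted p = 0.903). The summed macrophage markers were 25.9, 76.2 and 87.6 CPM in PRATA replicates 1, 2 and 3 and 71.8, 38.7 and 34.5 CPM in sham replicates 1, 2 and 3, so both measures were lowest in PRATA replicate 1 and sham replicate 3 and high in PRATA replicate 3 and sham replicate 1. Whether the reads of Cmklr1 came from macrophages was not tested. The intervals of Lepr and Cmklr1 are wide, and differences inside them in either direction remain compatible with these samples.

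**Figure D2:**
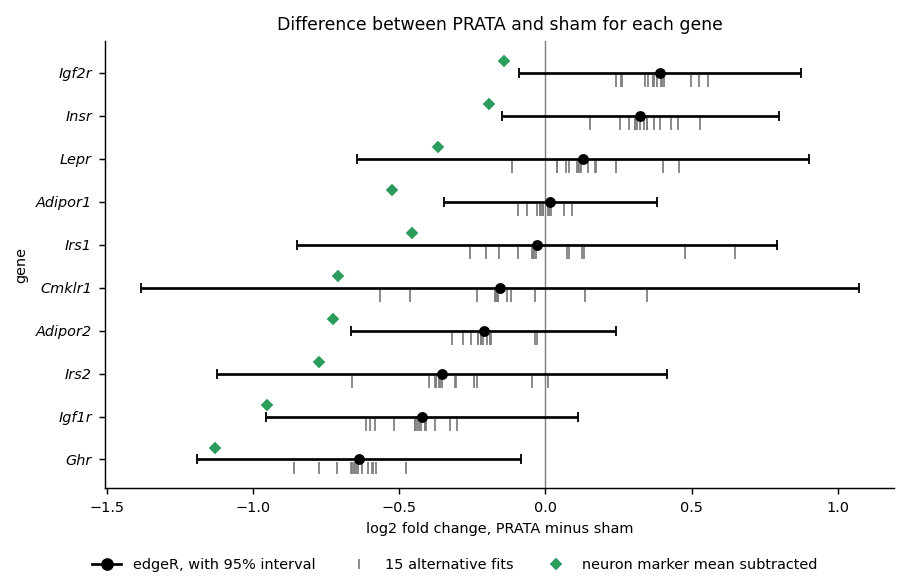
Log2 fold change of each gene, PRATA minus sham (horizontal axis), with the edgeR estimate and its 95% interval in black, the 15 alternative fits as gray ticks and the difference after subtraction of each sample's mean neuronal marker level as green diamonds. Only the interval of Ghr, from -1.19 to -0.08, leaves out 0, and every diamond lies below 0, as do 87.1% of all genes on that scale.

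Because neuronal markers were higher after PRATA (difference of their mean log2 level 0.54), the 10 genes were also expressed relative to that mean, as values without a test. This takes nearly the same amount off every gene: on this scale 87.1% of all genes tested were below 0, with a median log2 difference of -0.50. The 10 genes were below 0 with the rest, from -1.13 for Ghr and -0.95 for Igf1r to -0.19 for Insr and -0.14 for Igf2r, and nothing particular to them follows from the sign. The part that the neuronal share of the RNA has in any of these values was not tested.

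Ratios of related members within a sample do not depend on the library scaling, and gene length cancels when a ratio is compared between samples. The count ratio of Igf1r to Insr was 2.32, 2.98 and 3.94 after PRATA and 5.07, 3.29 and 7.94 after the sham operation. PRATA replicate 3 lay above sham replicate 2, and the other samples kept to the order of the groups (log2 difference -0.76, exact two-sided permutation p = 0.2, adjusted p = 0.4 over 4 ratios). For Igf2r to Igf1r the ratio was 1.76, 1.25 and 1.40 after PRATA and 0.729, 1.36 and 0.573 after the sham operation. Sham replicate 2 was again inside the PRATA range (log2 difference 0.81, exact permutation p = 0.2, adjusted p = 0.4). Adipor1 to Adipor2 had mean ratios of 2.34 ± 0.328 (PRATA) and 2.05 ± 0.448 (sham) (exact permutation p = 0.5), and Irs2 to Irs1 one of 13.7 ± 2.32 and 17.5 ± 5.71 (exact permutation p = 0.4). With 3 samples against 3 the smallest p that this test can give is 0.1.

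**Figure D3:**
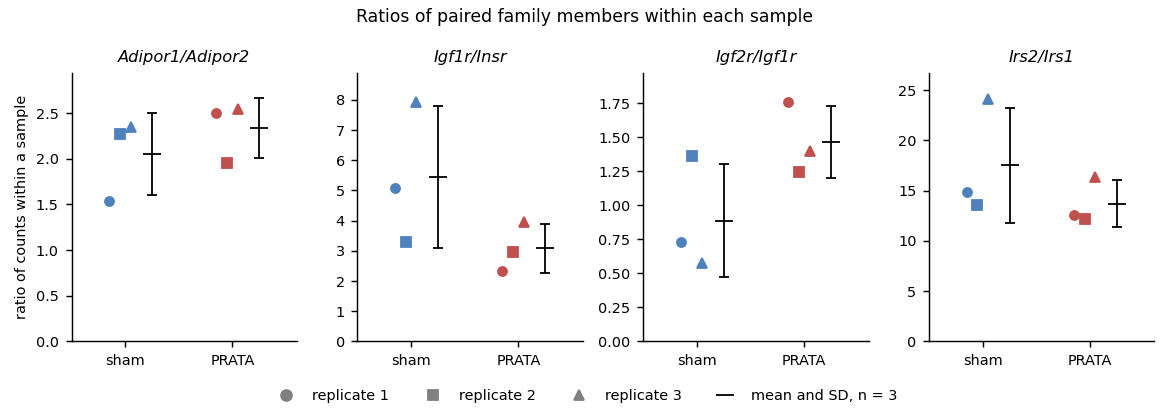
Ratio of the counts of 2 related genes within each sample (vertical axis, no unit, linear from 0) for sham (blue) and PRATA (red), with the replicate number as marker shape and the mean and SD of 3 samples in black. In the panels of Igf1r to Insr and Igf2r to Igf1r, sham replicates 1 and 3 stand away from the PRATA samples and sham replicate 2 falls inside their range.

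The members moved together in part across the 6 samples. Ghr and Igf1r had the highest correlation of their log2 levels (Pearson r = 0.93), Ghr was inversely related to Insr (r = -0.82) and to Igf2r (r = -0.78), and Igf1r to Insr (r = -0.79). Lepr went with Igf2r (r = 0.84), and Irs2 with Adipor2 (r = 0.80) and Ghr (r = 0.76). These values describe 6 libraries that share their depth and cell makeup, and they mix the difference between the groups with the spread within them.

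The pathways around the receptors were followed with 8 lists of 110 genes, of which 106 were found and 98 tested. The lists were chosen with earlier results of these data known, so their counts are descriptions. At an unadjusted p under 0.05 there were 10 genes higher and 9 lower after PRATA, 19 of 98, beside 18.3% of all genes. Groups did not overlap for 21 of the 98, beside 22.8% of all genes, so both counts were near the background. None had an adjusted p under 0.05 with edgeR, and the median log2 fold change was 0.10 against 0.02 over all genes. Of the 98, 4 had such a p together with an absolute log2 fold change over 1 (Cish, Socs3, Socs5 and Igfbp3), beside 4.40% of all genes.

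**Figure D4:**
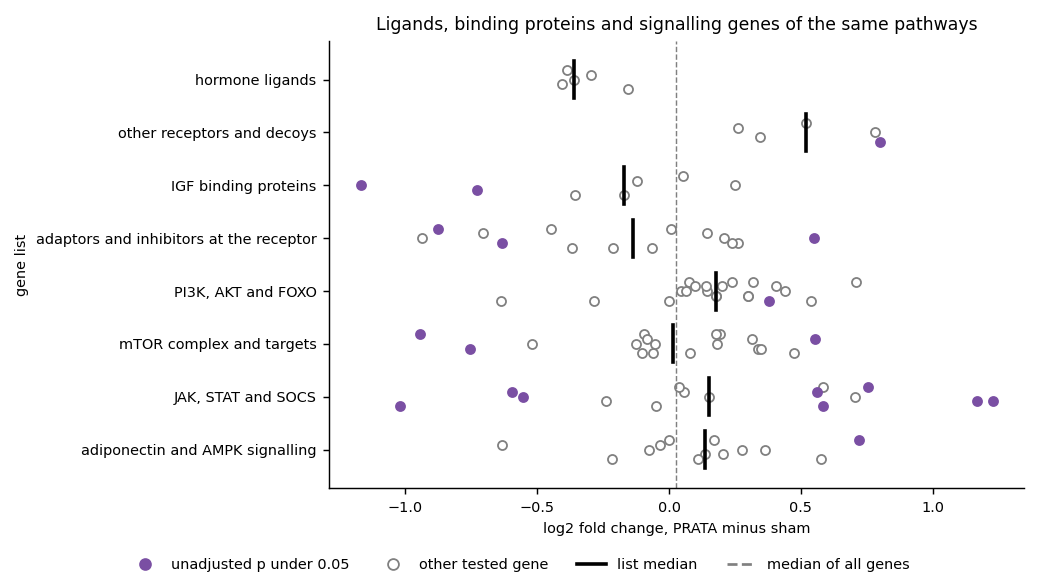
Log2 fold change, PRATA minus sham (horizontal axis), of every tested gene of the 8 pathway lists (rows), with filled purple points for an unadjusted p under 0.05, open points for the other genes, a black bar for the median of each list and a dashed line for the median of all genes. The JAK, STAT and SOCS row holds 8 filled points of 15, spread from -1.02 (Socs5) to 1.23 (Cish), while its median of 0.15 lies near the dashed line.

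The hormone genes ranged from nearly unread to abundant, with Ins2 and Retn at 2 counts in 1 sample each and 0 in the others. Of 11, 10 were found by name, Ins1 being the exception, and 5 passed the filter. Each of these 5 had an estimate below 0 that did not pass the test. They were Nampt (-0.30), Igf1 (-0.39), Rarres2, which encodes chemerin (-0.36), Igf2 (-0.41) and Adipoq (-0.16). Nampt, an adipokine and enzyme of NAD synthesis that most cells make, was at 168, 139 and 81.6 CPM after PRATA and 163, 133 and 181 CPM after the sham operation. Adiponectin mRNA lay between 0.283 CPM in sham replicate 3, which is 3 counts, and 2.50 CPM in sham replicate 2. Leptin mRNA was between 0 and 1.56 CPM and highest in sham replicate 2, and Ins2, Gh1, Retn and Apln were also under the filter. The other receptors and decoys had 5 of 5 tested genes above 0, with 1 at an unadjusted p under 0.05, beside 18.3% of all genes. That gene was Insrr, the insulin receptor-related receptor, a sensor of alkaline pH that binds no insulin, at 18.7, 14.8 and 19.5 CPM after PRATA and 8.91, 13.4 and 8.31 CPM after the sham operation. Its groups did not overlap, with a log2 fold change of 0.80 (SE 0.25, adjusted p = 0.187, edgeR). Cdh13, a binding partner of adiponectin at the cell surface, had a log2 fold change of 0.52 (adjusted p = 0.326), Ccrl2, which binds chemerin without signalling, one of 0.78, and Sort1 one of 0.26. Ccrl2 moved to 1.61 and Cdh13 to 0.34 without PRATA replicate 3 and sham replicate 1.

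Proteins that bind IGFs outside the cell had 2 estimates above 0 and 5 below. Igfbp3, the main carrier of IGFs in blood, was at 10.5, 11.2 and 20.1 CPM after PRATA and 49.7, 19.8 and 24.3 CPM after the sham operation (log2 fold change -1.17, SE 0.40, adjusted p = 0.205). Sham replicate 1 was far above the rest, and without it the log2 fold change was -0.69 at an unadjusted p of 0.0637 (edgeR). Igfbp5 was at 388, 425 and 408 CPM after PRATA and 852, 799 and 374 CPM after the sham operation, with sham replicate 3 under all PRATA samples (log2 fold change -0.73, adjusted p = 0.267). Igfbp7 and Igfbp2 had values of -0.36 and -0.17, and that of Igfbp7 was -0.06 without PRATA replicate 3 and sham replicate 1. Fibroblast markers, whose cells are known to make IGF binding proteins, were lower in 7 of 8 cases, and their part in these values was not tested.

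Among adaptors and inhibitors at the receptor, 6 of 14 were above 0 and 8 below, with 3 at an unadjusted p under 0.05, near the 18.3% of all genes. Grb10, an adaptor that restrains the insulin and IGF receptors, was at 43.8, 58.3 and 45.8 CPM after PRATA and 73.4, 67.9 and 88.4 CPM after the sham operation, without overlap (log2 fold change -0.64, SE 0.19, adjusted p = 0.175). Ptprf, the LAR phosphatase that can remove phosphate from the insulin receptor, was at 211, 218 and 239 CPM against 145, 173 and 139 CPM, also without overlap (log2 fold change 0.55, SE 0.17, adjusted p = 0.186). Enpp1, a membrane pyrophosphatase reported to bind the insulin receptor, had a log2 fold change of -0.88 (adjusted p = 0.240) and Sh2b2, an adaptor of JAK2 and the insulin receptor, one of -0.94 (adjusted p = 0.290). Without PRATA replicate 3 and sham replicate 1 these were -0.47 and -1.50.

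The list of PI3K, AKT and FOXO genes had 18 estimates above 0 and 3 below, where 7760 of all 14919 genes were above 0. Of the 21, 1 had an unadjusted p under 0.05, beside 18.3% of all genes. That was Foxo3, a transcription factor that AKT keeps out of the nucleus, at 54.9, 58.2 and 60.6 CPM after PRATA and 48.2, 45.9 and 39.5 CPM after the sham operation (log2 fold change 0.38, SE 0.16, adjusted p = 0.262). The PI3K subunits Pik3r2 (0.40), Pik3cb (0.44) and Pik3r3 (0.54) came next by p in that list. In the mTOR list 9 genes were above 0 and 9 below. Eif4ebp1 and Eif4ebp2, the repressors of translation that mTOR inactivates, had log2 fold changes of -0.95 (adjusted p = 0.191) and -0.75 (adjusted p = 0.211), both without overlap between the groups. Ddit4 and Sesn1, stress-induced inhibitors of mTOR, had values of 0.55 (adjusted p = 0.230) and 0.47. Of 13 adiponectin and AMPK genes 8 were above 0, led by Acacb, the mitochondrial acetyl-CoA carboxylase, at 7.74, 10.2 and 7.51 CPM against 5.53, 4.68 and 5.20 CPM (log2 fold change 0.72, SE 0.25, adjusted p = 0.211). The coactivator Ppargc1a (0.57), the AMPK subunit Prkab1 (-0.64) and Acaca (0.28) followed. Sham replicate 1 weighed on the first pair, since without it Ppargc1a was 1.06 (unadjusted p = 0.0013, adjusted p = 0.234, edgeR) and Prkab1 -0.37. Without sham replicate 3, Ppargc1a was 0.38.

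The JAK, STAT and SOCS list lies downstream of Lepr and Ghr. It had 8 of 15 genes at an unadjusted p under 0.05, 5 higher and 3 lower, beside 18.3% of all genes. The list was chosen with earlier results of these data known, so this count is a description only. Cish, a STAT5-induced inhibitor of growth hormone and cytokine receptors, was at 23.6, 20.2 and 18.7 CPM after PRATA and at 8.71, 12.5 and 5.67 CPM after the sham operation. The groups were well apart (log2 fold change 1.23, SE 0.29, adjusted p = 0.156, edgeR). Stat5b, one of the 2 STAT5 genes, was at 42.9, 49.2 and 43.4 CPM against 27.2, 32.9 and 30.3 CPM (log2 fold change 0.58, SE 0.17, adjusted p = 0.171). Socs3, the inhibitor that leptin and IL-6 type cytokines induce through STAT3, was at 66.0, 87.6 and 55.1 CPM against 44.8, 15.3 and 32.3 CPM, again without overlap (log2 fold change 1.17, SE 0.37, adjusted p = 0.187). Socs5 went the other way, at 161, 172 and 185 CPM against 474, 194 and 382 CPM, with sham replicate 2 just above the PRATA samples (log2 fold change -1.02, SE 0.31, adjusted p = 0.182). Another 4 genes at this threshold, named after their values were seen, were Socs6 (-0.55), Socs4 (-0.59), Pias3 (0.56) and Socs2 (0.75). The list was thus divided, with Cish, Socs2 and Socs3 above 0 and Socs4, Socs5 and Socs6 below, so its count does not give it a direction. Socs3 and Cish also answer to cytokines other than leptin and growth hormone.

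**Figure D5:**
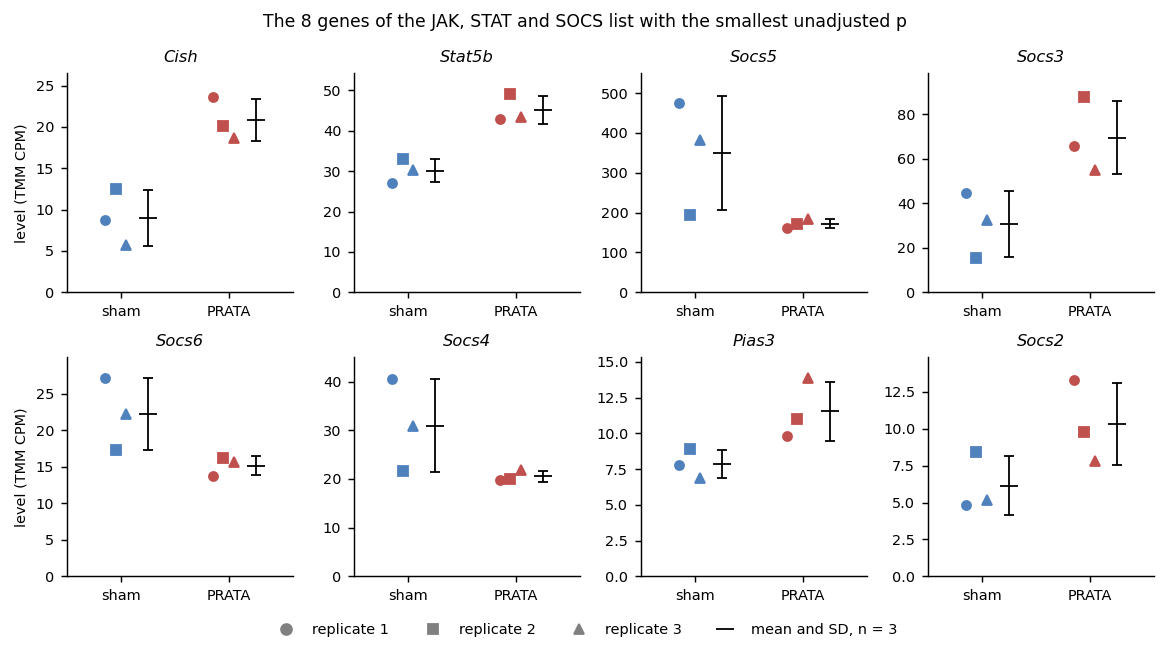
Level of the 8 JAK, STAT and SOCS genes with an unadjusted p under 0.05 in every sample (vertical axes, TMM-normalized CPM, linear from 0), sham in blue and PRATA in red, marker shapes for the replicate number and black bars for the mean and SD of 3 samples. Cish, Stat5b, Socs3 and Pias3 have all red points above all blue points, Socs5 and Socs6 all red points below, and Socs4 and Socs2 overlap.

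The calls in these pathways depended on the test. DESeq2 gave an adjusted p under 0.05 to Cish (0.0134), Socs5 (0.0314) and Socs3 (0.0498) and to 4.16% of all genes. With limma voom and sample quality weights 7.86% of all genes passed, among them Cish, Socs3, Socs5, Insrr, Grb10, Ptprf and Eif4ebp1. None of the 10 receptors and substrates passed in either of these fits. Without sham replicate 2, Ghr passed together with Cish, Socs5, Insrr, Cdh13, Eif4ebp1 and Grb14, beside 5.93% of all genes.

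Sequence upstream of the genes was read from RefSeq (rat build GRCr8), as the 250 bases before 1 annotated start per gene, which was listed for 9 of the 10 members, Irs2 being the exception. The windows were searched on both strands for TGTTTAC, a site of FOXO factors, and for TTCNNNGAA, a site of STAT factors, where N is any base. The FOXO motif was in 2 members, Insr and Adipor1, against 3.21% of all 33469 windows. Insr is a known FOXO target in other tissues. Each stretch has the motif or its reverse complement in capitals, and both lie inside the span of their gene, downstream of another annotated start.
Insr, chr12:6128885-6128914 (minus strand): acgggccgcgtTGTTTACtggccggagtcg
Adipor1, chr13:48411751-48411780 (plus strand): aaaggtccaccGTAAACAtttccggcccct

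The STAT motif was in none of the 9 member windows and in 7.67% of all windows. Of the 10 windows listed for the JAK, STAT and SOCS genes it was in 2, those of Socs1 and Cish. The window of Cish is shown because it holds 4 copies, in capitals, and Cish had the smallest p of the pathway genes. It lies at chr8:116850719-116850968 on the plus strand.
Cish: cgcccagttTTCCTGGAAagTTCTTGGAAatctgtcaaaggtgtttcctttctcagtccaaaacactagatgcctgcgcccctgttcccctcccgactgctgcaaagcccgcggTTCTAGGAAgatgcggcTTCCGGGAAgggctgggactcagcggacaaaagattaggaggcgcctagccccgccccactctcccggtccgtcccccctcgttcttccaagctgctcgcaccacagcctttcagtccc
A match is a description of these letters and shows no binding, and a window without one says nothing about the factor.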

How the data were processed

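RNA of L1-L2 DRG neurons of SHRs, in 3 PRATA and 3 sham samples grouped by the treatment label, was sequenced from stranded, ribosome-depleted libraries. The authors deposited raw counts of reads per gene without normalization. The submitters' processing notes name STAR 2.7.3a, RSEM and DESeq2 without a role, and the study's methods name HISAT2, StringTie and Cuffdiff for FPKM values. The tool that made the deposited counts, its strand setting, genome build and annotation are not given in the sources used here.

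The tests were run in R 4.3.3. The main one used edgeR 4.0.16 (filterByExpr, minimum count 10 and minimum total 15; TMM scaling; quasi-likelihood test without covariates, two-sided, Benjamini-Hochberg over 14919 genes), and the others limma 3.58.1 and DESeq2 1.42.0. The fits were checked on simulated counts with 200 changed genes, called at an adjusted p under 0.05. In these, edgeR recovered 6% of 2-fold and 72% of 4-fold changes, with 9 false calls. For DESeq2 these values were 25%, 85% and 26. Limma-trend and voom with quality weights each recovered 6% of the 2-fold changes. The lack of a call alone therefore does not exclude a 2-fold change. Which differences remain compatible with the samples is given for each gene by its interval, and that of Adipor1, from -0.35 to 0.38, leaves out 2-fold changes. Ratios were compared by an exact permutation test over samples. Intervals have a level of 95%, without correction for the number of genes. The total count per sample, from 5892967 to 15226952, limits the precision of genes with few reads beside the spread between samples, and floors cover counting error only, since reads carried no molecular identifiers. Of 201 genes in the lists, 195 were matched to 1 row each by name. Members and lists were chosen with earlier results of these data known. Named were all members, all hormone ligands, up to 4 genes of each pathway list with the smallest p, and the 3 genes most correlated with a member whose groups do not overlap. Another 4 JAK, STAT and SOCS genes were added after their values were seen. Grb14 was named only for its adjusted p without sham replicate 2, and Socs1 only for its upstream motif. Alternatives were other scalings, filters and tests, the replicate number as a block, each sample left out in turn, and 4 samples alone. Plots were made in Python 3.11.15 (matplotlib 3.10.9).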

Additional observations from a re-analysis of the deposited data

How the results depend on the processing

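Same-numbered samples of the 2 groups showed no shared shift. The correlation across genes of their deviations from the group mean was -0.36, -0.04 and -0.35 for numbers 1, 2 and 3. These values cannot tell whether samples were processed in pairs. Members at an unadjusted p under 0.05 were 0 higher and 1 lower in edgeR without a block. With the replicate number as a block they were 0 lower (Ghr -0.59, unadjusted p = 0.0528), the pathway genes 9 instead of 19 and all genes 1528 instead of 2734. Limma voom with quality weights put 2 members higher (Insr, Igf2r), 2 lower (Ghr, Igf1r), 35 pathway genes and 4606 of all genes under an unadjusted p of 0.05, with 7 pathway genes and 1173 of all genes at an adjusted p under 0.05. DESeq2 had 3 pathway genes and 620 of all genes at an adjusted p under 0.05. Without PRATA replicate 3 and sham replicate 1, 1 member was higher (Irs1) and 0 lower at an unadjusted p, and 14 of all genes had an adjusted p under 0.05. With each sample left out in turn, members ranged from 0 to 1 higher and from 0 to 3 lower at an unadjusted p and from 0 to 1 at an adjusted p, pathway genes from 10 to 34 and from 0 to 6, and all genes from 1399 to 4259 and from 0 to 884. The highest of each came without sham replicate 2, where Ghr, Igf1r and Irs2 were lower and Igf2r higher, and the lowest unadjusted counts of pathway and all genes without PRATA replicate 1 (10 and 1399), with 11 and 1461 without sham replicate 3. The cause was not tested.

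Subtraction of the neuronal marker mean, which lowers nearly all genes alike, gave Lepr -0.37, Adipor1 -0.53, Insr -0.19 and Igf2r -0.14. Adipor1 became -0.0077 with the size factors of DESeq2 or its test, -0.019 with library size alone, -0.017 with voom, -0.094 in the 4 samples and between -0.063 and 0.093 with a sample left out. Irs1 became 0.083 with limma-trend, 0.12 with voom, 0.074 with the block, 0.65 in the 4 samples and between -0.26 and 0.48 with a sample left out. Left-out samples took Lepr to between -0.12 (sham replicate 3) and 0.40, Cmklr1 to between -0.56 and 0.35 (sham replicate 1), Igf2 to between -0.94 and 0.12, Igfbp2 to as high as 0.11 and Adipoq to between -0.84 and 0.71. Adipoq was 0.46 with voom, and in the 4 samples Irs2 was 0.011, Rarres2 0.21, Nampt -0.047, Igf2 -0.89, Adipoq -0.97, Ppargc1a 1.09 and the log2 difference of the ratio of Adipor1 to Adipor2 -0.060. With at least 10 counts in every sample, Igf2 and Adipoq were not tested.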
